A study of Mus musculus with 31 samples.

Results

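CREBBP (CBP) and EP300 (p300) are paralogous lysine acetyltransferases and coactivators, and the 9 genes described here are Crebbp, Ep300 and 7 genes for proteins that bind or work with them: Cited2, Cited4, Carm1, Ncoa1, Ncoa2, Ncoa3 and Ncoa6. They were chosen by name, and every probe set annotated to them by current symbol or synonym was taken, which gave 20 of the 45037 probe sets on Mouse 430 2.0 arrays. Crebbp had 4 probe sets, Ep300 had 1, Cited2 2, Cited4 2, Carm1 1, Ncoa1 3, Ncoa2 4, Ncoa3 2 and Ncoa6 1. The question asked of them was whether loss of 1 allele of Crebbp or of Ep300 went with a different level of that gene, of its paralog or of the partners.

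The study compared mutant and wild-type (WT) mouse embryos at 14.5 days post coitus in 4 experiments. Fetal liver hematopoietic stem cells (FL HSCs) were sorted as Sca-1+ Lin- AA4.1+ c-Kit++ cells, and each FL HSC sample pooled 15 embryos. The first experiment had 2 Crebbp+/- and 2 WT pools, the second 2 Ep300+/- and 2 WT pools, and the third 4 Cdkn1a-/- and 3 WT pools, Cdkn1a being the gene of the cell cycle inhibitor p21. The fourth had mouse embryonic fibroblasts (MEFs) of 4 Crebbp+/- and 4 WT embryos, 1 of each from each of 4 litters. The Crebbp and Ep300 mice were C57BL/6 with littermate controls, and the Cdkn1a-/- and WT mice, both B6/129Sv in the labels, were bought as separate stocks, so in that experiment stock and genotype cannot be told apart. FL HSC pools were sorted from fetal livers that had been viably frozen, and 12 ng of RNA per pool was amplified before labelling, whereas the methods state that MEF RNA was not amplified (the labels name the amplification kit with MEFs as well). Which part of Crebbp and of Ep300 the mutations inactivate is not given in the sources used here, so a probe set outside that part would not check the genotype.

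CBP and p300 do not bind DNA themselves. They are recruited by many DNA-binding transcription factors, acetylate histones and other proteins, and bring further coactivators to promoters and enhancers. In blood, stem cells are sensitive to the dose of CBP, and loss of 1 allele of CREBBP causes Rubinstein-Taybi syndrome in humans. Their partners include the nuclear receptor coactivators, a methyltransferase that acts with them on chromatin, and the CITED proteins, which bind the same domain of CBP and p300 as several transcription factors.

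Levels are log2 values, normalized apart in each experiment, so that they are compared only within an experiment. Technical replicates, 2 arrays for each pool of the Crebbp and Ep300 FL HSC experiments, were averaged, and their arrays correlated with r of 0.989 to 0.994. A probe set was tested where its highest sample reached log2(100), that is 6.64, the minimum of the methods. A call needed an adjusted p (Benjamini-Hochberg, limma) under 0.05 and a fold change over 1.5. A change of 1.5 fold or less could therefore not be called at any p. In bulk samples, fewer cells of a type and less RNA per cell cannot be told apart. Of 6 genes listed as markers of the HSC fraction, 5 were on the array under a single gene name. These were Kit and Cd93 (AA4.1), which the sort used, and Cd34, Ptprc and Flt3, which it did not. Ly6a, the gene of Sca-1, was the one left out. All 5 reached the minimum in each FL HSC experiment and 0 of 5 in MEFs. All 8 fibroblast markers reached it in MEFs. The Cdkn1a probe set was at 6.55, 6.34, 8.07 and 5.30 in pools labelled Cdkn1a-/- and at 7.66, 8.17 and 8.86 in WT pools, so the pool labelled Cdkn1a-/- sample 3 lay within the WT range and the pools are named by their labels from here on.

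Crebbp had lower values in Crebbp+/- MEFs at each of its 4 probe sets. At the brightest, 1435224_at, the level was 9.48, 9.50, 9.42 and 9.38 in Crebbp+/- MEFs of litters 1 to 4, against 10.34, 10.15, 10.31 and 10.15 in WT MEFs. All 4 mutant samples lay below all 4 WT samples, and every litter showed the difference, with values of -0.85, -0.65, -0.89 and -0.77. The log2 change was -0.79 (standard error 0.073, 95% interval -0.97 to -0.61), which places Crebbp+/- MEFs at 57.8% of the WT level (95% interval 50.9% to 65.5%). It was no call after adjustment over all probe sets with a block per litter (limma, adjusted p = 0.417, unadjusted p = 6.77e-05), and the smallest adjusted p of any probe set in that fit was 0.270. Without the litter block, 2 Crebbp probe sets were called, 1435224_at and 1436983_at (adjusted p = 0.0269 for each).

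The other Crebbp probe sets ran the same way in MEFs. At 1436983_at the level was 9.32, 9.48, 9.40 and 9.37 in Crebbp+/- MEFs, against 10.37, 10.11, 10.23 and 10.19 in WT MEFs, a change of -0.83 (standard error 0.090, limma adjusted p = 0.417). At 1434633_at it was 6.61, 6.97, 7.01 and 6.37 in Crebbp+/- MEFs, against 7.58, 7.10, 7.31 and 7.37 in WT MEFs, a change of -0.60 (adjusted p = 0.658). At 1459804_at it was 5.72, 5.96, 5.68 and 5.49 in Crebbp+/- MEFs, against 6.50, 7.11, 7.12 and 7.01 in WT MEFs, a change of -1.22 (adjusted p = 0.417). At each of the 3 the groups did not overlap. Because all Crebbp+/- samples lay below the minimum at 1459804_at, the size of that last change depends on the background correction.

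Cell type markers also differed between the MEF genotypes, without a call. All 8 fibroblast markers had a negative change in Crebbp+/- MEFs (median -0.18), and 2 of 8 were past an unadjusted p of 0.05, those of the matrix proteins Dcn (-1.02, limma adjusted p = 0.505) and Postn (-0.49, adjusted p = 0.609). Their summed level was 17.01 to 17.26 in Crebbp+/- MEFs and 17.16 to 17.37 in WT MEFs, so the groups overlapped. Ebf1, a transcription factor taken as a lymphoid marker and the only one of that list to reach the minimum in MEFs, was at 8.10 to 8.497 in Crebbp+/- MEFs, against 8.75 to 9.28 in WT MEFs, a change of -0.67 (adjusted p = 0.564). Their part in the MEF values of the members was not tested.

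Crebbp was not lower in the FL HSC pools labelled Crebbp+/- at its 2 brighter probe sets, so these pools too are named by their labels from here on. At 1435224_at the level was 11.95 and 11.66 in pools labelled Crebbp+/-, against 12.07 and 11.41 in WT pools. The WT pools enclosed the others, and the pairs went opposite ways, by -0.11 and 0.25. The log2 change was 0.07 (limma, adjusted p = 0.803), or 104.8% of WT with a 95% interval of 82.2% to 133.6%, and that interval lies above 50%. It rests on a spread shared with the Ep300 FL HSC pools, so the 2 Crebbp pairs alone do not set its width. Over the probe sets that reached the minimum, the median SD within genotypes was 0.12 in those pools and 0.26 in the Crebbp pools. At 1434633_at the level was 9.47 and 8.67 in pools labelled Crebbp+/-, against 9.62 and 8.49 in WT pools, a change of 0.01 (adjusted p = 0.978). Of the 3 tested, only the dim probe set 1436983_at was lower in both pairs, with 6.31 and 6.72 in pools labelled Crebbp+/-, against 7.004 and 6.88 in WT pools. There the groups did not overlap, as at 11.7% of all probe sets with the mutant lower, and the change was -0.42 (standard error 0.16, 95% interval -0.83 to -0.02, adjusted p = 0.196), or 74.5% of WT (95% interval 56.1% to 98.9%). The mean of the pools labelled Crebbp+/- was below the minimum at that probe set. The fourth, 1459804_at, stayed below the minimum in both FL HSC experiments of this protocol, with 3.92 and 4.15 in pools labelled Crebbp+/- and 4.39 and 4.38 in WT pools.

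**Figure D1:**
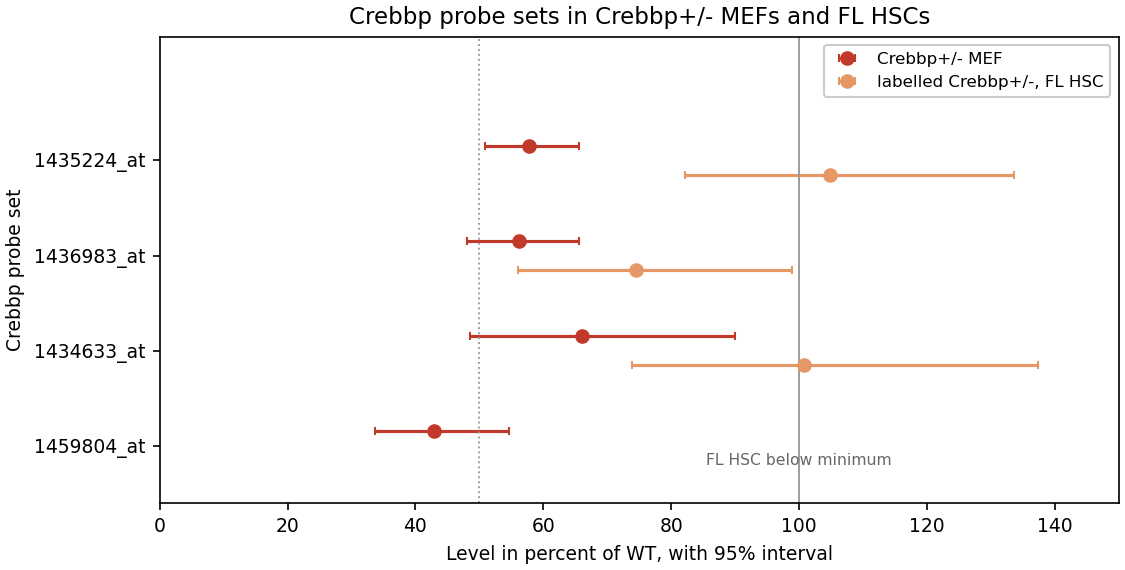
Crebbp level in percent of WT (x axis) at each Crebbp probe set (y axis) in Crebbp+/- MEFs (4 litters) and in FL HSC pools labelled Crebbp+/- (2 pairs); points are limma estimates, bars their 95% intervals, the solid line is 100% and the dotted line 50%. The 4 MEF estimates lie between 42.9% and 66.1%, and the FL HSC estimates at 104.8%, 74.5% and 100.7%. The FL HSC intervals rest on a spread shared by the Crebbp and Ep300 FL HSC pools.

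The difference between the cell types was tested in a fit of both experiments. At 1435224_at the Crebbp change in MEFs was lower than that in FL HSCs by a log2 difference of -0.86 (standard error 0.15, 95% interval -1.20 to -0.52), which did not pass (limma, adjusted p = 0.0666). It passed without the filter on the level (adjusted p = 0.0446), and it ranged from -1.04 to -0.68 as each pair or litter was left out. At 1434633_at and 1436983_at the differences were -0.61 (adjusted p = 0.345) and -0.41 (adjusted p = 0.349). Of all 9846 probe sets tested for this difference 0 were called, 0% of them, and 1549 were past an unadjusted p of 0.05, or 15.7%.

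Ep300, the paralog of Crebbp, had higher values in both kinds of Crebbp mutant sample without a call in either. Its single probe set, 1434765_at, was at 9.39 and 9.43 in FL HSC pools labelled Crebbp+/-, against 9.14 and 9.19 in WT pools. Both pools labelled Crebbp+/- lay above both WT pools, with pair differences of 0.25 and 0.23. Its log2 change was 0.24 (standard error 0.10, 95% interval -0.02 to 0.50), or 118.2% of WT (95% interval 98.7% to 141.6%), and it was no call (limma, adjusted p = 0.229). Among all alternatives tried the change ran from 0.20 to 0.25. These changes are under the 1.5 fold needed for a call, so no alternative could call it. By the paired t-test of the methods the unadjusted p was 0.0270 and the adjusted p 0.619. Groups without overlap and the mutant higher were found at 16.1% of all probe sets that reached the minimum in that experiment and at 3 member probe sets, those of Ep300, Cited2 and Ncoa6.

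In MEFs the same gene was at 9.03, 9.07, 8.97 and 9.06 in Crebbp+/- samples, against 8.99, 8.86, 8.93 and 8.87 in WT samples. It was higher in the mutant in 4 of 4 litters, by 0.04, 0.22, 0.03 and 0.19, but the groups overlapped, since the lowest Crebbp+/- sample lay below the highest WT sample. The log2 change was 0.12 (standard error 0.071, 95% interval -0.06 to 0.30, limma adjusted p = 0.760), or 108.7% of WT (95% interval 96.1% to 123.0%). The Ep300 change did not differ detectably between MEFs and FL HSCs, with a difference of -0.12 (95% interval -0.41 to 0.16, adjusted p = 0.692).

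In the pools labelled Ep300+/-, Ep300 itself was at 9.46 and 9.47, against 9.53 and 9.60 in WT pools. The groups did not overlap, as at 18.7% of all probe sets with the mutant lower, but the pair differences of -0.07 and -0.13 were small beside the interval of the change, -0.36 to 0.16. The log2 change was -0.10 (standard error 0.10, limma adjusted p = 1.00), or 93.2% of WT (95% interval 77.8% to 111.6%), and that interval lies above 50%. The first technical replicates alone gave -0.26 and the second alone 0.06, so the direction depended on the array. The Ep300 change in pools labelled Crebbp+/- exceeded that in pools labelled Ep300+/- by 0.34 (standard error 0.14, 95% interval -0.01 to 0.70), which did not pass (adjusted p = 0.335). Crebbp in turn was at 12.12 and 12.03 in pools labelled Ep300+/- and at 12.09 and 12.18 in WT pools at 1435224_at, overlapping groups with a change of -0.06 (95% interval -0.41 to 0.29, adjusted p = 1.00).

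**Figure D2:**
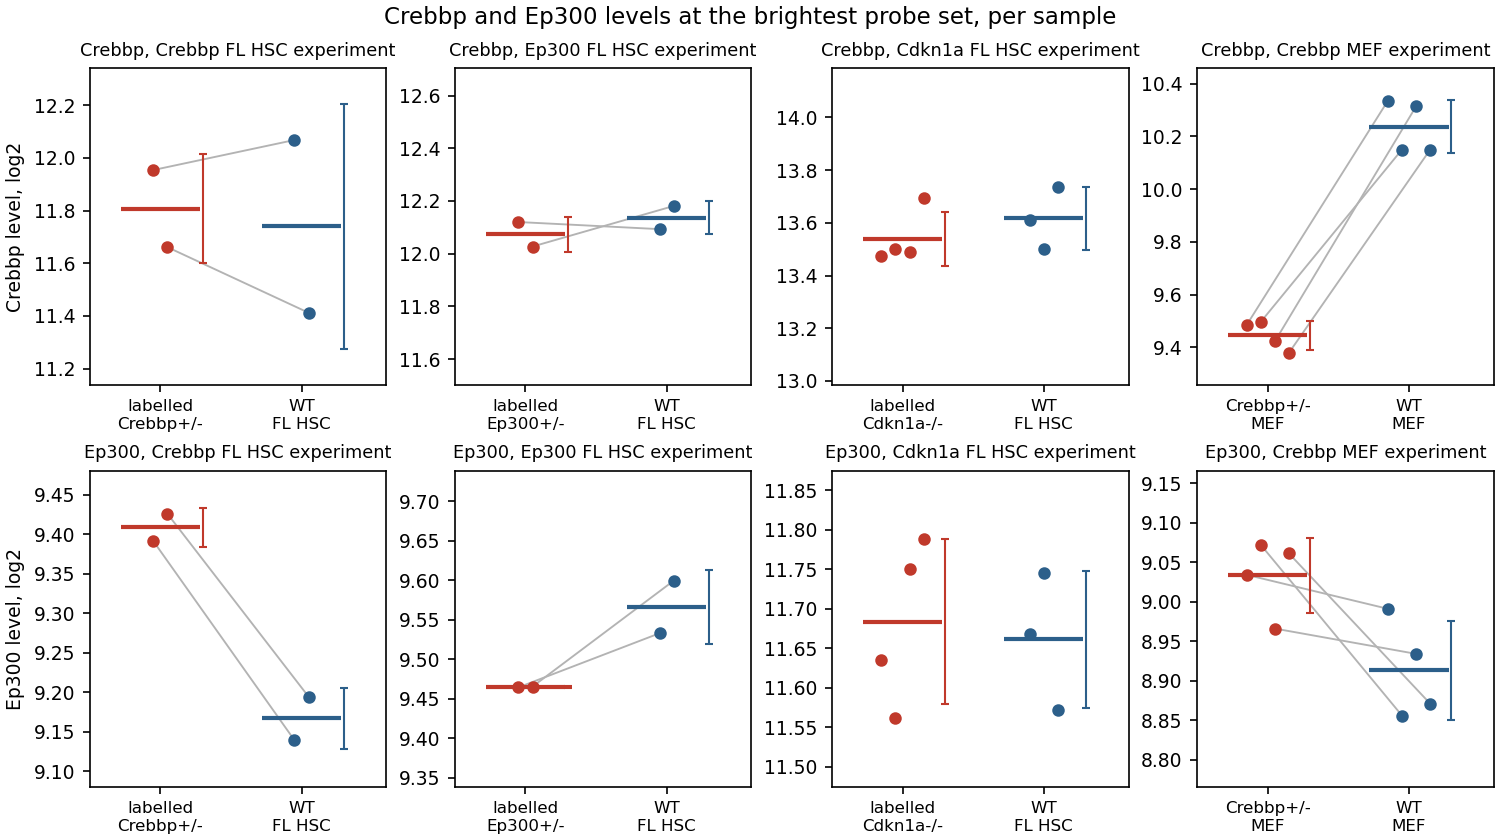
Levels (log2, y axes, 1 range width per row) of Crebbp at 1435224_at and of Ep300 at 1434765_at in every sample, mutant left and WT right in each of the 4 experiments; lines are means, error bars SD, and grey lines join the samples of a pair or litter. Crebbp separates the genotypes in MEFs alone, and Ep300 lies 0.24 higher in pools labelled Crebbp+/- and 0.12 higher in Crebbp+/- MEFs.

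Cited2 and Cited4 encode small proteins that bind the CH1 domain of CBP and p300, and CITED2 thereby limits HIF1A and supports fetal liver HSCs in mice. Cited2 at 1452207_at was at 11.55 and 11.62 in pools labelled Crebbp+/-, against 11.52 and 11.39 in WT pools. It was higher in both pairs without overlap, and the change of 0.13 did not pass (95% interval -0.16 to 0.41, limma adjusted p = 0.536). In pools labelled Ep300+/- it was at 11.84 and 11.75, against 11.73 and 11.73 in WT pools, with a change of 0.06. These groups did not overlap either, as at 14.1% of all probe sets with the mutant higher, and the change was no call (adjusted p = 1.00). In MEFs it varied more than any other member, at 11.85, 11.09, 11.14 and 11.89 in Crebbp+/- samples and 12.04, 11.36, 11.05 and 11.35 in WT samples, with 2 litters higher and 2 lower. Its SD pooled within genotypes was 0.43, the largest of the 7 members tested there, whose median was 0.16. The dimmer Cited2 probe set, 1421267_a_at, was high in the same 3 samples, at 11.38 and 11.36 in Crebbp+/- MEFs of litters 1 and 4 and at 11.60 in the WT MEF sample of litter 1. Cited4 lay below the minimum at both probe sets in every sample of the 4 experiments, from 1.44 to 2.25, and no change of it could be measured.

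Carm1 encodes an arginine methyltransferase that methylates histones and CBP and p300 themselves, and its transcript was measured by 1419743_s_at. In pools labelled Crebbp+/- it was at 10.95 and 10.84, against 10.94 and 10.35 in WT pools. One pool, WT sample 2, was low and the other 3 were close to each other, so the change of 0.24 came from the second pair (0.00 and 0.48) and was no call (limma, adjusted p = 0.389). Pools labelled Ep300+/- were at 10.64 and 10.88 and their WT pools at 10.76 and 10.84, a change of -0.05 (adjusted p = 1.00). In MEFs the change was also -0.05 (95% interval -0.25 to 0.15, adjusted p = 0.903), with samples between 11.18 and 11.48 in Crebbp+/- and between 11.18 and 11.56 in WT.

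The largest differences among the partners in FL HSCs were those of Ncoa1 and Ncoa6. Ncoa1 encodes SRC-1, a coactivator of nuclear receptors that binds CBP and p300. At 1434515_at it was at 7.67 and 7.16 in pools labelled Crebbp+/-, against 7.30 and 6.06 in WT pools. WT sample 2 stood low, the groups overlapped, and the pairs differed by 0.38 and 1.10. This gave a log2 change of 0.74 (standard error 0.21, 95% interval 0.19 to 1.29), which was no call (limma, unadjusted p = 0.0185, adjusted p = 0.138). That fit shares its spread with the Ep300 FL HSC pools. Over the probe sets that reached the minimum, the median SD within genotypes was 0.26 in the Crebbp and 0.12 in the Ep300 FL HSC pools. Without the block per pair the standard error was 0.40 (limma, unadjusted p = 0.114). The paired t-test of the methods gave an unadjusted p of 0.290. With either pair left out the change was 0.38 or 1.10, and since 1 pool then stood against 1, with the spread taken from the Ep300 FL HSC pools, the lack of a call there says little.

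Ncoa6 encodes a coactivator of nuclear receptors that is part of a histone H3K4 methyltransferase complex. At 1423374_at it was at 7.11 and 7.33 in pools labelled Crebbp+/-, against 6.83 and 6.62 in WT pools. Here both pools labelled Crebbp+/- lay above both WT pools, by 0.28 and 0.71 within pairs. That is a log2 change of 0.50 (standard error 0.15, 95% interval 0.12 to 0.87), again no call (limma, unadjusted p = 0.0205, adjusted p = 0.141). Its fold of 1.41 was under that needed for a call. Without the block per pair the unadjusted p was 0.0185 (limma), and by the paired t-test of the methods it was 0.261. The change was 0.28 to 0.71 as each pair was left out.

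Neither gene ran this way in the other Crebbp or Ep300 experiments. Ncoa1 was at 7.56 and 7.59 in pools labelled Ep300+/-, against 7.96 and 7.59 in WT pools, a change of -0.20 that rests on WT sample 1 alone. Ncoa6 was at 6.86 and 6.87 in pools labelled Ep300+/-, against 7.02 and 6.82 in WT pools, a change of -0.05. The difference between the Crebbp and the Ep300 effects was 0.94 for Ncoa1 (95% interval 0.19 to 1.68, limma adjusted p = 0.251) and 0.55 for Ncoa6 (95% interval 0.03 to 1.06, adjusted p = 0.303), and neither passed. In MEFs Ncoa1 was brightest at 1418594_a_at, with 8.14, 8.19, 8.32 and 8.43 in Crebbp+/- samples, against 8.53, 7.99, 8.63 and 8.19 in WT samples. These groups overlapped, with a change of -0.07 (95% interval -0.41 to 0.28, adjusted p = 0.927). At 1434515_at, the Ncoa1 probe set measured in both cell types, the change in MEFs was lower than that in FL HSCs by a difference of -0.73 (standard error 0.26, adjusted p = 0.244), which did not pass. In MEFs Ncoa6 was at 8.96, 9.02, 8.92 and 9.01 in Crebbp+/- samples, against 9.12, 9.10, 9.07 and 9.03 in WT samples. It was lower in 4 of 4 litters without overlap, though by a change of only -0.10 (95% interval -0.27 to 0.06, adjusted p = 0.776). Groups without overlap and the mutant lower were found at 1.37% of all probe sets tested in MEFs, and among the members at 5 probe sets, 4 of Crebbp and 1 of Ncoa6. The Ncoa6 change in MEFs was lower than that in FL HSCs by a difference of -0.60 (standard error 0.15, unadjusted p = 0.00459, adjusted p = 0.130), which did not pass.

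The 3' to 5' difference of the Actb and Gapdh control probe sets, a measure of RNA degradation and of incomplete amplification, differed between the FL HSC pools as well. For Actb it was 1.90 and 2.55 in pools labelled Crebbp+/-, against 2.13 and 3.19 in WT pools, and for Gapdh it was 0.89 and 1.89 in pools labelled Crebbp+/-, against 1.22 and 2.59 in WT pools. It was smaller in the pool labelled Crebbp+/- of each pair, by 0.24 and 0.64 for Actb, and largest in WT sample 2. In that pool Ncoa1, Ncoa6, Ncoa3, Carm1, Cited2 and Crebbp were lowest at their brightest probe sets. Ncoa2 and Ep300 were not lowest there, at 9.795 and 9.19, against 9.55 and 9.14 in WT sample 1. In the Ep300 FL HSC experiment the Actb difference was 1.68 and 1.87 in pools labelled Ep300+/- and 1.64 and 1.51 in WT pools, and in MEFs it was 0.20 to 0.26 in Crebbp+/- and 0.18 to 0.25 in WT. Markers of other cells differed too, with 0 called. All 4 tested hepatocyte genes were higher in pools labelled Crebbp+/- (median change 0.93) and all 4 lower in pools labelled Ep300+/- (median -0.58). Their summed level was 8.06 and 8.65 in pools labelled Crebbp+/- and 5.04 and 9.64 in WT pools, so the groups overlapped, and 0 of the 5 erythroid markers reached the minimum. Both tested lymphoid genes were likewise higher in pools labelled Crebbp+/- (median 1.04) and lower in pools labelled Ep300+/- (median -0.73), led by Ebf1 (1.38, adjusted p = 0.133, and -1.19, adjusted p = 1.00). The summed lymphoid level was 8.40 and 9.29 in pools labelled Crebbp+/-, against 7.22 and 8.65 in WT pools, and 6.38 and 7.04 in pools labelled Ep300+/-, against 7.06 and 7.19 in WT pools. Of the 2 tested fibroblast genes Postn was at 5.55 and 6.09 in pools labelled Crebbp+/-, against 6.39 and 7.15 in WT pools (-0.95, adjusted p = 0.104). The other, Pdgfrb, went the opposite way (0.27, limma adjusted p = 0.733), so the list showed no common direction. The part of these differences in the values of Ncoa1, Ncoa6 and Ep300 was not tested.

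**Figure D3:**
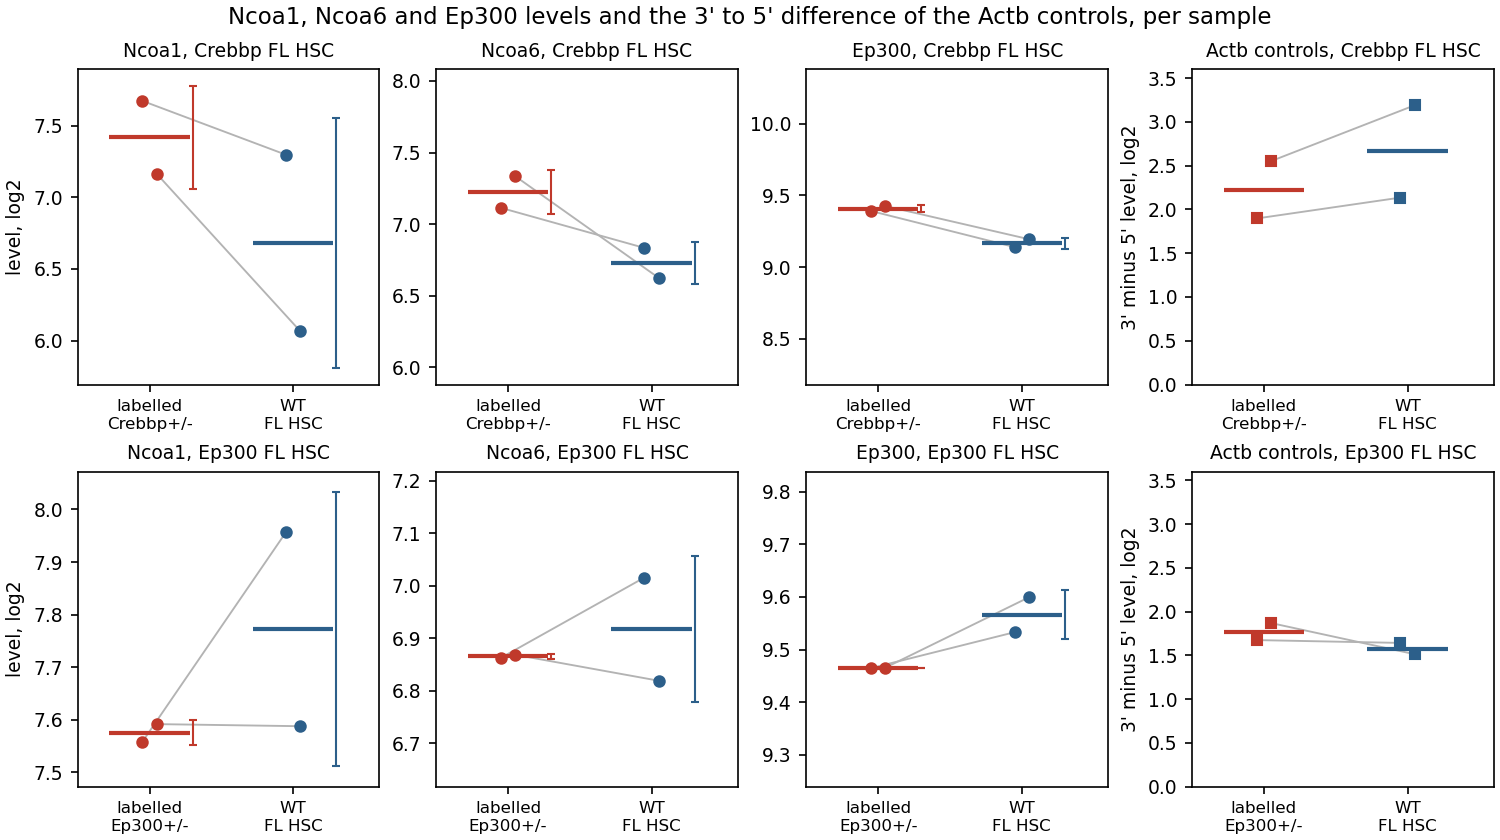
Levels (log2) of Ncoa1, Ncoa6 and Ep300 and the 3' minus 5' difference (log2) of the Actb controls in each pool, labelled mutant left and WT right, for the Crebbp FL HSC experiment (top) and the Ep300 FL HSC experiment (bottom); lines are means, error bars SD, and grey lines join pairs. In the top row the Actb difference is highest in WT sample 2 (3.19), the pool where Ncoa1 is lowest (6.06).

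Ncoa2 and Ncoa3 encode the other two members of the p160 family, relatives of SRC-1 that also recruit CBP and p300. Ncoa2 at 1435233_at was at 9.52 and 9.84 in pools labelled Crebbp+/-, against 9.55 and 9.79 in WT pools, and the change of 0.01 (95% interval -0.25 to 0.27) turned to -0.03 once arrays were centred on their medians. It was at 9.65 and 9.58 in pools labelled Ep300+/-, against 9.62 and 9.58 in WT pools, and its log2 change was 0.02. In MEFs it was at 9.42, 9.31, 9.33 and 9.26 in Crebbp+/- samples, against 9.53, 9.04, 9.13 and 9.17 in WT samples, a change of 0.11 (95% interval -0.11 to 0.33, limma adjusted p = 0.800). In each of these 3 experiments the genotypes overlapped. The second Ncoa2 probe set that reached the minimum, 1435234_at, differed by -0.05, 0.06 and 0.08 in the Crebbp FL HSC, Ep300 FL HSC and MEF experiments.

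Ncoa3, known as AIB1 in humans, where it is amplified in breast cancer, was bright in FL HSCs and below the minimum in all MEF samples. At 1448027_at it was at 11.67 and 11.31 in pools labelled Crebbp+/-, against 11.64 and 11.04 in WT pools, with a change of 0.15 (95% interval -0.16 to 0.46, limma adjusted p = 0.503). Within a genotype sample 1 was higher than sample 2, by more than the genotypes differed. It was at 11.75 and 11.88 in pools labelled Ep300+/-, against 11.92 and 11.87 in WT pools, a change of -0.08 (adjusted p = 1.00). In MEFs the same probe set was between 6.10 and 6.24 in Crebbp+/- samples and between 5.58 and 6.22 in WT samples. The remaining probe sets of Ncoa1 (1443397_at) and Ncoa2 (1446827_at and 1450458_at) lay below the minimum in every experiment. Ncoa3 at 1422737_at reached it in the Cdkn1a experiment alone, and Ncoa1 at 1418594_a_at and Cited2 at 1421267_a_at reached it in the Cdkn1a and MEF experiments. In all, 11, 11, 15 and 13 of the 20 member probe sets were tested in the Crebbp FL HSC, Ep300 FL HSC, Cdkn1a and MEF experiments.

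Over the members as a group, limma called none in any comparison. In the Crebbp FL HSC experiment 0 of 11 tested probe sets were called, against 0.383% of all 13332 tested, and 3 of 11 were past an unadjusted p of 0.05 at any fold, against 24% of all. Those 3 were Crebbp at 1436983_at, Ncoa1 and Ncoa6. All 8 genes tested there had a positive change at their brightest probe set, with a median of 0.20, beside 59.1% of 7592 named genes with a positive change and a median of 0.05. In the first pair alone Crebbp (-0.11) and Ncoa2 (-0.03) were negative. Carm1, Ncoa3 and Cited2 were at 0.0045, 0.03 and 0.03 in that pair, and Ep300, Ncoa6 and Ncoa1 at 0.25, 0.28 and 0.38. The other tested probe sets of Crebbp and Ncoa2 changed by -0.42 (1436983_at), 0.01 (1434633_at) and -0.05 (1435234_at). In the Ep300 FL HSC experiment 0 of 11 were called, against 0% of all 13332, and 0 of 11 were past the unadjusted threshold, against 4.28%. There 2 genes had a positive and 6 a negative change, with a median of -0.06. For the difference between these effects 0 of 11 were called, against 0% of 12097, and 2, Ncoa1 and Ncoa6, were past the unadjusted threshold, against 15.5%.

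In MEFs 0 of 13 probe sets were called, against 0% of 15502, and 4 of 13, all of them Crebbp, were past the unadjusted threshold, against 6.64%. Apart from Crebbp, the 6 genes tested in MEFs changed by -0.10 to 0.12. For the difference between MEFs and FL HSCs 0 of 10 probe sets were called, against 0% of 9846. Past the unadjusted threshold were 3, Crebbp at 1435224_at, Ncoa1 and Ncoa6, against 15.7% of all. The t-test of the methods, before adjustment, called 3 member probe sets, all of Crebbp in MEFs, and 0 in the other experiments, and after adjustment it called 0. The counts over all probe sets by that test before adjustment are given with the alternatives at the end. The median half-width of the 95% interval was 0.33 over the 8 genes in the Crebbp and Ep300 FL HSC experiments and 0.20 over the 7 genes in MEFs.

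**Figure D4:**
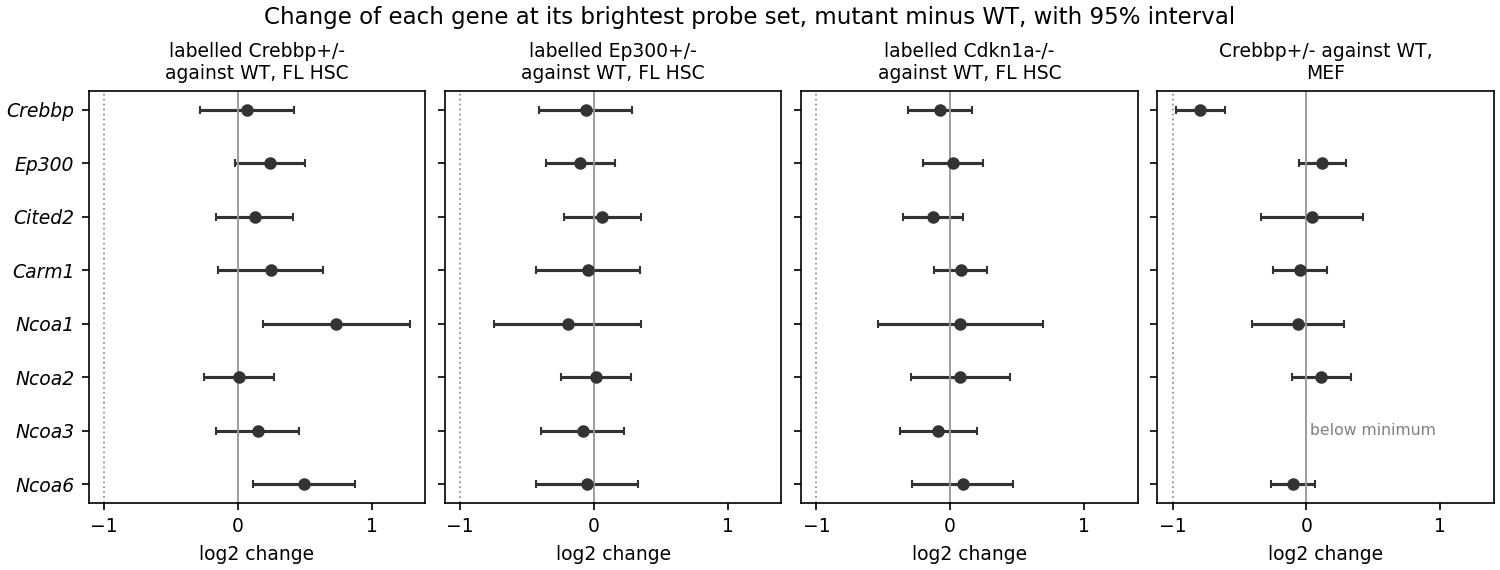
Log2 change, mutant minus WT (x axis), of the 8 genes that reached the minimum (y axis) at the brightest probe set in each of the 4 experiments; points are limma estimates, bars 95% intervals, the solid line is no change and the dotted line 50% of the WT level. Crebbp in MEFs (-0.79) lies apart from 0, and the intervals of Ncoa1 and Ncoa6 in pools labelled Crebbp+/- run from 0.19 to 1.29 and from 0.12 to 0.87. These FL HSC intervals rest on a spread shared by the Crebbp and Ep300 FL HSC pools.

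The Cdkn1a experiment gave the members in pools whose label names no mutation of Crebbp or Ep300. Ep300 was at 11.63, 11.56, 11.75 and 11.79 in pools labelled Cdkn1a-/-, against 11.67, 11.74 and 11.57 in WT pools, a change of 0.02 (95% interval -0.20 to 0.25, limma adjusted p = 0.944). Crebbp at 1435224_at was at 13.47, 13.50, 13.49 and 13.69 in pools labelled Cdkn1a-/-, against 13.61, 13.50 and 13.74 in WT pools, a change of -0.08 (adjusted p = 0.807). For both genes the groups overlapped. Of 15 member probe sets 0 were called, against 0.405% of all 20962, and 0 were past an unadjusted p of 0.05, against 7.29%. The changes of the 8 genes ran from -0.13 for Cited2 to 0.09 for Ncoa6, with 5 positive and 3 negative and a median of 0.05. Without the pool labelled Cdkn1a-/- sample 3, whose Cdkn1a level lay in the WT range, they ran from -0.14 to 0.14, with a median of 0.03, and 0 member probe sets were called.

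WT sample 3 of this experiment stood apart in markers of other cells. Its summed erythroid level was 13.42, against 5.69 to 6.50 in pools labelled Cdkn1a-/- and up to 6.15 in the other WT pools. Its summed hepatocyte level was 16.35, against 9.59 to 11.69 in pools labelled Cdkn1a-/- and 8.62 and 8.74 in the other WT pools, which lay below all pools labelled Cdkn1a-/-. Its summed macrophage level was 14.34, against 12.46 to 13.36 in pools labelled Cdkn1a-/- and 12.66 and 13.49 in the other WT pools. Members were at an extreme in the same pool: Crebbp at 1436983_at was at 12.28, against 11.18 to 11.52 in pools labelled Cdkn1a-/- and 11.56 and 11.39 in the other WT pools. Cited2 was highest there, at 13.45. Ncoa6 was lowest, at 9.71, against 10.04 to 10.25 in pools labelled Cdkn1a-/- and 10.29 and 10.24 in the other WT pools, and Ncoa2 was lowest at 1435233_at (11.70) but highest at 1435234_at (11.25). Without that pool the change of Crebbp at 1436983_at was -0.07 in place of -0.34, and Ep300, Ncoa2 and Ncoa6 turned to -0.02, -0.06 and -0.09, with 0 member probe sets called either way. The part of the other cells in these values was not tested.

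Other genes of the same machinery were counted from 4 lists, and limma called 0 of them in any comparison. In pools labelled Crebbp+/-, of 11 lysine acetyltransferases outside CBP and p300, 7 had a positive and 4 a negative change (median 0.18), and the smallest p belonged to the transcription initiation factor subunit Taf1 (0.39, adjusted p = 0.162) and to Gtf3c4 (0.32, adjusted p = 0.148). Of 24 other coactivators and Mediator subunits, 22 were positive and 2 negative (median 0.19), led by Ncoa4 (0.58, adjusted p = 0.0976), which also targets ferritin to lysosomes, and Trip4 (0.46, adjusted p = 0.143). Of 16 corepressors and deacetylases 6 were positive and 10 negative (median -0.03), and the smallest p were those of the deacetylase Sirt1 (0.55, adjusted p = 0.0877) and of Sin3a (-0.24, adjusted p = 0.229). Of 38 DNA-binding factors that recruit CBP and p300, 24 were positive and 14 negative (median 0.11), and the smallest p were those of Irf3 (-0.49, adjusted p = 0.0866) and Cebpb (-0.60, adjusted p = 0.0877). All these medians stand beside 0.05 over all probe sets tested.

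In pools labelled Ep300+/- the medians of the same 4 lists were -0.05, -0.02, 0.02 and -0.01, beside -0.02 over all probe sets, and Cebpb had the smallest p of the DNA-binding factors (-0.44, adjusted p = 1.00). In Crebbp+/- MEFs the medians were 0.07, 0.00, 0.02 and 0.00, beside 0.02, and 8 of 11 lysine acetyltransferases had a positive change. The smallest p among them were those of Kat2a (0.16, limma adjusted p = 0.760) and Kat2b, the gene of the acetyltransferase PCAF (0.19, adjusted p = 0.763). In pools labelled Cdkn1a-/- they were 0.05, -0.01, 0.04 and -0.01, beside 0.05. The Cebpb change in MEFs exceeded that in FL HSCs by 0.72 (limma, adjusted p = 0.0787), which did not pass.

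Across the 23 samples, each experiment centred on its mean, the levels of Crebbp and Ep300 at their brightest probe sets correlated with r of -0.33, and with r of -0.30 without Cdkn1a WT sample 3. These values are descriptions, since samples of an experiment were normalized together and the 4 Crebbp+/- MEFs carry much of the spread of Crebbp. The genes most like Crebbp among 9602 probe sets were Snhg12 (r = 0.84), Klk8 (0.76), Ubtf (0.74), Rap2b (0.72) and Oard1 (0.71). Those most like Ep300 among 9604 probe sets were Usp45 (r = 0.79), Mgat2 (0.75), Cdc42 (0.74), Gmds (0.72) and Cnot6 (0.72). Among the partners at their brightest FL HSC probe sets, Ncoa2 (0.53) and Ncoa6 (0.42) had the highest r with Ep300, and Ncoa1 (0.33) and Carm1 (0.32) with Crebbp. The second Ncoa2 probe set, 1435234_at, had r of 0.03 with Ep300. Crebbp at 1434633_at and 1436983_at had r of -0.28 and -0.61 with Ep300.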

How the data were processed

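The authors processed the arrays with GCRMA (version not given in the sources used here), a background model that uses probe sequence followed by quantile normalization, and deposited 1 log2 value per probe set and array, with each group of arrays normalized apart. A rank-like scaling of this kind removes any shift shared by all transcripts. Of 45101 probe sets, 64 controls were left out, 34945 carried 1 gene name, 932 several and 9160 none in the platform annotation, and 34741 were matched to a current symbol. Synonyms that are the symbol of another gene were not used to choose members, and no member probe set was shared with another gene. The members, the gene lists and the tests were chosen with earlier results of these data known. All probe sets and genes named follow from the member list, and list genes are the 2 with the smallest p.

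From the deposited log2 values, technical replicates were averaged, and a probe set was tested, two-sided, where any sample reached log2(100), in R 4.3.3 with limma 3.58.1. The Crebbp and Ep300 FL HSC samples were fitted together with a block per pair, MEFs with a block per litter and Cdkn1a samples unpaired. Litters pair the MEF samples by label, and same-numbered samples deviated together there (r of 0.19 to 0.46), although in 3 of 4 litters a sample of another litter correlated more strongly (0.44 to 0.59), and in the Crebbp (0.71) and Ep300 (0.38) FL HSC experiments. The scripts were tested on simulated data. Each gene is given at its brightest probe set over an experiment, with the others beside it. Precision is limited by the number of FL HSC pools and MEF litters, since technical replicate arrays were averaged. Pools of FL HSCs of 1 genotype are separate samples per the labels, but which litters they drew on is not given in the sources used here. With the block per pair, p-values of the Crebbp and Ep300 FL HSC fit measure how the mutant minus WT difference varied between pairs. That spread is shared by both experiments. In MEFs p-values measure how the difference varied between litters, and in the Cdkn1a experiment the spread between pools of a genotype. Alternatives were the filter, centring, a variance trend, no block, single technical replicates, each experiment alone, the methods' t-test and leaving out each replicate. Probe sequences and presence calls were not used here.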

Additional observations from a re-analysis of the deposited data

Results flagged for a closer look

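In 41 groups of 4 samples, 3 member levels lay far from the rest of their group, a distance that chance gives in about 1 of 20 groups, so that about 2 of the 41 would be met by chance. Crebbp at 1435224_at in the pool labelled Cdkn1a-/- sample 4 was 13.69, above 13.47 to 13.50 in the other 3 pools of that label. Cited2 at 1421267_a_at in the pool labelled Cdkn1a-/- sample 1 was 8.64, above 8.31 to 8.36 in the others. Ncoa1 at 1434515_at in the Crebbp+/- MEF sample of litter 2 was 7.28, above 6.98 to 6.995 in the others.

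For 2 member genes the averaged samples of 2 experiments moved in opposite directions in every pair or litter. How often this held over all probe sets was not counted. Ep300 was higher in both pairs of the Crebbp FL HSC experiment and lower in both pairs of the Ep300 FL HSC experiment, a difference of 0.34 (limma, adjusted p = 0.335). In the Ep300 FL HSC experiment its direction depended on which technical replicates were used. Ncoa6 was lower in all 4 MEF litters and higher in both Crebbp FL HSC pairs, a difference of -0.60 (limma, adjusted p = 0.130). Neither difference passed the test.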

How the results depend on the processing

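Of 417 recomputed member changes, 390 kept their direction and their side of the threshold, 24 reversed and 3, all of Crebbp in MEFs or its difference from FL HSCs, passed. The members called stayed at 0 but for MEFs without the replicate block (2) and with the methods' t-test before adjustment (3), and for the MEF minus FL HSC difference without the level filter (1), all Crebbp. Over all probe sets, the 51 calls of the Crebbp FL HSC comparison became 0 without the filter, without the replicate block, with either technical replicate, with its 4 samples alone, by the adjusted methods' t-test and without either pair (0 to 0), but 220 with a filter on the mean, 208 with centring, 876 with a variance trend and 271 by the t-test before adjustment. The Ep300 comparison had 20 by that t-test, which covered 13332 probe sets in each of these comparisons. The 85 calls of the Cdkn1a comparison became 42 without the filter, 38 with the mean filter, 6 with a replicate block on numbers 1 to 3, 607 and 36 by the t-test before and after adjustment, and 38 to 90 with a replicate left out. MEFs had 2 of 15502 without the block and 72 of 15502 by the t-test before adjustment. The MEF minus FL HSC difference had 698 without the filter, 1 without the block, 32 and 18 with technical replicate 1 or 2, and 0 to 45 with a replicate left out (29 without MEF litter 1, 45 without Crebbp pair 1). The causes were not tested.

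Reversals were all of uncalled changes. Leaving out a replicate, the ranges were, in the Crebbp FL HSC comparison, Crebbp -0.11 to 0.25 and Ncoa2 -0.0275 to 0.048, in the Ep300 comparison, Carm1 -0.12 to 0.0315, Crebbp -0.15 to 0.027, Ncoa1 -0.40 to 0.0040, Ncoa3 -0.17 to 0.0025 and Ncoa6 -0.15 to 0.0495, in their difference, Crebbp -0.0505 to 0.31, in the Cdkn1a comparison, Ep300 -0.0228 to 0.0638, Ncoa1 -0.22 to 0.32, Ncoa2 -0.0638 to 0.19 and Ncoa6 -0.0903 to 0.20, and in MEFs, Carm1 -0.0953 to 0.0107, Cited2 -0.13 to 0.15 and Ncoa1 -0.17 to 0.0433. Centring gave Ncoa2 -0.033 in the Crebbp comparison and Ep300 -0.00825 in the Cdkn1a comparison, where the block gave Ep300 -0.0127. Technical replicate 2 alone gave Ncoa2 -0.0445 in the Crebbp comparison, and Crebbp 0.0595 and Ep300 0.0585 in the Ep300 comparison. Technical replicate 1 alone gave Ncoa2 -0.11 there. The replicate block changed no other member call. With 2 pairs in each of the Crebbp and Ep300 FL HSC experiments, the 95% interval had a median half-width of 0.33 over the member genes, against 0.26 in the Cdkn1a and 0.20 in the MEF experiment.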
